A study of Mus musculus with 14 samples.

Results

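The genes described here were 10 imprinted genes that lie outside the Dlk1-Dio3 domain: H19, Igf2, Igf2r, Mest, Peg3, Peg10, Grb10, Plagl1, Snrpn and Kcnq1ot1. They were chosen by name. All 10 were among the 22376 genes of the RNA-seq table, 1 of the 3919 pile-up sites recorded in the Drosha line was assigned to a member (Peg10), and none of the 4666 sites recorded in the Dicer line was. A pile-up site is a genomic base at which many Degradome-seq reads start. Degradome-seq ligates a linker to the 5′ monophosphate of polyA-tailed RNA, the end that an RNase III enzyme such as Drosha leaves. The authors describe the same end after cleavage by Argonaute2, so a pile-up site alone does not show a cut by Drosha.

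The Drosha samples were mouse embryonic stem cells (ESCs) with a floxed Drosha allele (Drosha fl/fl) and a tamoxifen-dependent Cre recombinase at the Rosa26 locus (CreER). Control cells were left untreated, and Drosha-deficient cells received 100 nM 4-hydroxytamoxifen (4OHT) for 72 h followed by 48 h without it. For this line there were 2 control and 2 deficient Degradome-seq libraries and 3 control and 3 deficient RNA-seq libraries. The Dicer samples were Dicer fl/fl ESCs transduced with a retrovirus for GFP alone (control) or for GFP and Cre (deficient), sorted for GFP at day 3 and grown for 2 more days, with 2 Degradome-seq libraries each. Every culture was grown on inactivated mouse embryonic fibroblasts, so each library may hold fibroblast RNA, and fewer cells of a type cannot be told apart from less RNA per cell. The controls of the Drosha line did not receive 4OHT, so the agent and the deletion cannot be told apart. Control and deficient cells of the Dicer line shared the virus and the sort.

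The Degradome-seq libraries held 28682300 to 34547609 mapped reads, as the step between deposited values implies, and 3 reads were worth 0.0868 to 0.105 reads per 1000000 mapped reads (RPM). The RNA-seq table gave each gene as 1 mean over the 6 libraries, so neither the spread between libraries nor the level of the deleted gene in each library could be examined. All 10 listed ESC markers were above the median gene in that table, at 4.95 to 10.9 on the scale of log2 counts per 1000000 (CPM) per kb, and the 10 listed fibroblast markers had a median of 0.16.

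An imprinted gene is expressed mainly from the allele of 1 parent, because a differentially methylated control region is marked in the egg or the sperm and the mark is kept through early development. ESCs are derived from the blastocyst, and whether the lines used here carried these marks was not measured. Several imprinted genes contain miRNA genes. Drosha, the nuclear RNase III, cuts the stem-loop out of the primary transcript, and Dicer then cuts the released stem-loop in the cytoplasm. When a cut stem-loop lies in a polyA-tailed transcript, the 3′ remnant begins at the base after the 3p arm and carries the 5′ monophosphate that Degradome-seq captures.

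By annotation, 3 members held a miRNA gene. Mir675 lay in an exon of H19, at chr7:142577064-142577147 on the minus strand of GRCm38. Mir335 lay in an intron of Mest, at chr6:30741299-30741396 on the plus strand. Mir483 lay in an intron of Igf2, at chr7:142654924-142654996 on the minus strand, so Igf2 was also a host although H19 and Mest were the hosts named in advance. The mature RNAs are given below from RefSeq (GRCm38.p6), all 3 genes having matched, since they fix where a captured end of each host would start. Capitals mark the seed, bases 2 to 8 from the 5′ end, and all 6 seeds differed.
miR-675-5p: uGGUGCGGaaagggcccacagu
miR-675-3p: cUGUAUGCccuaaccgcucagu
miR-335-5p: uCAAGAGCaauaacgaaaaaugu
miR-335-3p: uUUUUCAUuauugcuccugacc
miR-483-5p: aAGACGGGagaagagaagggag
miR-483-3p: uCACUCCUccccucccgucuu

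The RNA-seq table first showed at what level each member was expressed, as a mean over control and Drosha-deficient libraries together. The level in control cells alone was not given. Levels are compared per length, as the authors' mean log2 CPM minus log2 of the merged exon length in kb from GENCODE vM21. The table gave no spread, so the order below carries no test, and whether neighbours in it differed beyond their spread could not be examined. The median of the 22353 genes with a length was 1.05 log2 CPM per kb, with quartiles at -1.70 and 3.34. The median of the 10 members was 2.97, and 8 of the 10 were above the median gene.

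Igf2r, the receptor that carries IGF2 and mannose 6-phosphate-tagged proteins to lysosomes, stood highest. Its level was 4.60 log2 CPM per kb, percentile 88.3 of all genes, from a mean of 226 CPM over 9308 nt of exon. Snrpn, which encodes the spliceosomal protein SmN, was next at 4.18 (percentile 84.5, 39.2 CPM, 2159 nt). Grb10, an adaptor that restrains signalling from the insulin and IGF receptors, followed at 3.65 (percentile 78.6, 114 CPM, 9089 nt). Igf2r thus exceeded Snrpn by 1.34-fold and Grb10 by 1.93-fold per length.

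The next 5 genes lay between 3.35 and 2.12 log2 CPM per kb. H19, a long non-coding RNA and the host of miR-675, was at 3.35 (percentile 75.1, 25.01 CPM, 2460 nt). Peg3, a zinc finger protein, was at 2.98 (percentile 70.8, 105 CPM, 13324 nt). These were followed by Peg10, a retrotransposon-derived gene needed for the placenta, at 2.96 (percentile 70.5, 51.8 CPM, 6667 nt). The levels of Peg3 and Peg10 were 1.02-fold apart, the closest pair among the members. Plagl1, a zinc finger transcription factor, stood at 2.80 (percentile 68.6, 54.4 CPM, 7819 nt). Mest, a hydrolase-fold protein and the host of miR-335, was at 2.12 (percentile 60.6, 17.1 CPM, 3945 nt).

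Only Kcnq1ot1 and Igf2 were below the median gene per length. Kcnq1ot1, the long non-coding RNA that silences its neighbours in cis, had 48.8 CPM spread over 93092 nt, which gave -0.93 log2 CPM per kb (percentile 32.3). On counts alone it stood at percentile 77.7, so its place depended on the length correction. Igf2, the fetal growth factor, had 0.295 CPM over 5723 nt and a level of -4.28 (percentile 4.25). Igf2r exceeded Igf2 by 472-fold per length, and H19, its neighbour on chromosome 7, exceeded it by 197-fold. At so low a level of Igf2 these ratios are rough, and Igf2 also shares exon bases with another gene, as given below.

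**Figure D1:**
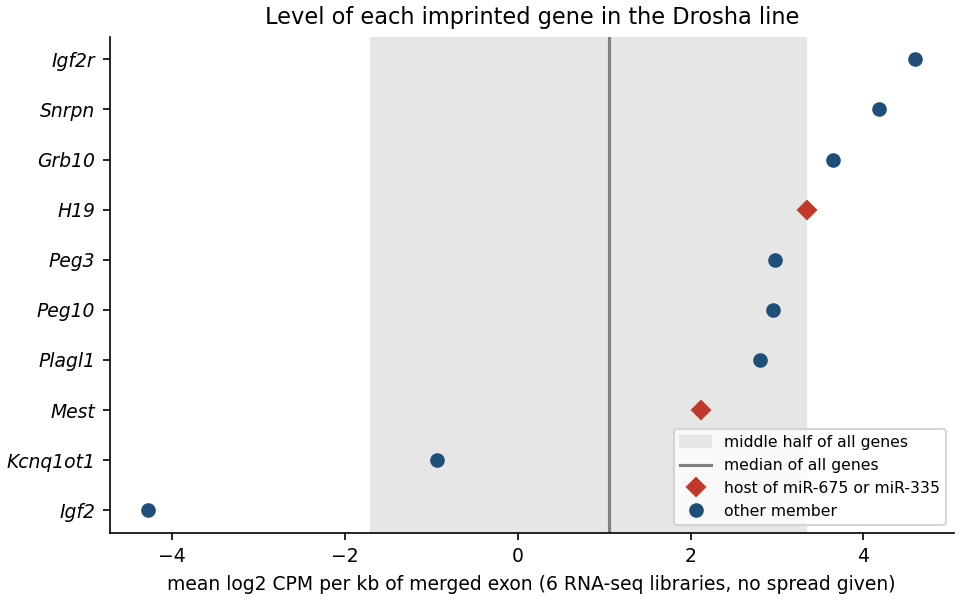
Level of each member in the RNA-seq table, as mean log2 CPM per kb of merged exon over 6 libraries of the Drosha line (x axis), with no spread because the table gives 1 mean per gene. The grey band spans the quartiles of all genes and the line their median at 1.05; 8 of 10 members lie to its right, the hosts H19 and Mest (diamonds) among them, and Igf2 lies far to the left.

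The levels of both hosts lay within the range of the other members. H19 and Mest had a median of 2.73 log2 CPM per kb, beside 2.97 for the other 8 members, at ranks 4 and 8 of 10. With Igf2 counted as a host, the 3 genes that hold a miRNA gene had a median of 2.12 and the remaining 7 a median of 2.98. These are 2 or 3 genes against 7 or 8, and no test was made. None of Mir675, Mir335 and Mir483 had a row of its own in the RNA-seq table.

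Exons shared with other genes make some of these levels uncertain. The authors describe stranded RNA-seq libraries, but the sources used here did not give how reads on shared bases were counted. Nor did they say whether counting used the strand. Of the Igf2 exon bases, 62.8% also belong to the read-through gene Gm49394 on the same strand. Of the Snrpn exon bases, 27.3% also belong to Gm38393 and 10.0% to Snurf, which had no row, both on the same strand. Of the Mest exon bases, 23.1% lie opposite exons of Copg2, an imprinted neighbour. Kcnq1ot1 runs antisense to Kcnq1, but shares 0.13% of its exon bases with it.

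Other imprinted genes and the factors that keep imprints were described for comparison. Of 52 further imprinted genes, 45 had a row, with a median of 1.37 log2 CPM per kb, and 26 of the 45 were above the median gene. Slc38a4, an amino acid transporter, was highest at 6.81, before Nap1l4, a histone chaperone, at 6.13 and Jade1, a component of histone acetyltransferase complexes, at 5.02. Airn, the non-coding RNA antisense to Igf2r, was among the lowest at -4.14, with the calcitonin receptor gene Calcr at -4.80 and Magel2 at -5.20. Igf2r thus stood at percentile 88.3 and its antisense RNA at percentile 4.91. Airn had a mean of -2.30 log2 CPM over 3597 nt of annotated exon, and at so low a level its place is rough.

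All 7 keepers of imprints were above the median gene and above the median member. Trim28, the corepressor that KRAB zinc finger proteins recruit, was highest at 7.58 log2 CPM per kb. Hells, a chromatin remodeller, was at 5.91, and Dppa3, which protects the maternal genome from demethylation, was at 5.54. Zfp57, a zinc finger protein that binds methylated imprinting control regions, was at 5.37, and the insulator protein Ctcf at 5.06. Setdb1, the H3K9 methyltransferase that acts with Trim28, was at 4.21 and Zfp445, a second zinc finger protein of imprinted regions, at 3.51.

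Markers of other cell types were read beside these levels. The fibroblast markers ranged from -3.96 to 3.89, and 4 of 10 were above the median gene. Col1a1, a fibroblast collagen, was the highest at 3.89, above every member except Igf2r and Snrpn. The part of feeder RNA in the levels of the members was not tested. Of the 5 endoderm markers 4 had a row, none above the median gene, and of the 5 trophoblast markers 3 had a row, at 1.05 to 4.82.

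**Figure D2:**
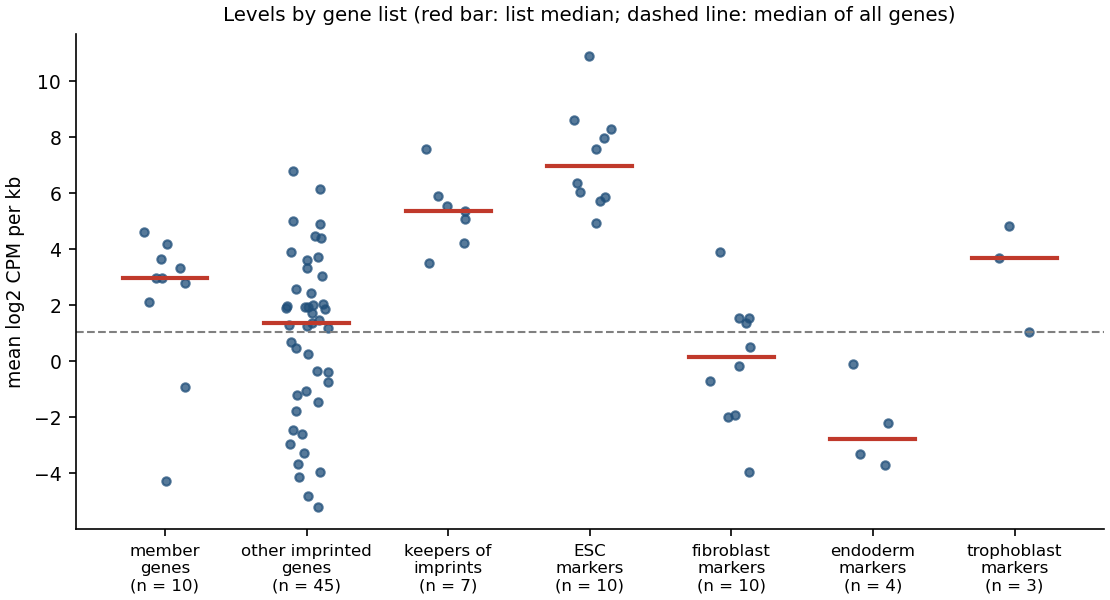
Mean log2 CPM per kb (y axis) of every gene with a row in each list, a point per gene, with the list median as a red bar and the median of all genes as a dashed line. The members have a median of 2.97, the keepers of imprints 5.37, the ESC markers 6.97 and the fibroblast markers 0.16.

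The next question was whether Degradome-seq recorded a cut end in a member, and whether it depended on Drosha. No site was assigned to H19, Mest or Igf2, in either line. Igf2 had only 0.295 CPM, and Mir335 and Mir483 lie in introns. Whether ends at these miRNA genes could have been captured was not examined. The nearest site on the same strand as the base after the 3p arm was 924 kb away for Mir675 in the Drosha table and 929 kb away in the Dicer table. For Mir335 the distances were 703 kb and 643 kb, and for Mir483 they were 846 kb and 851 kb. The tables list only sites that the authors classified as pile-ups, so a missing site is not a count of 0. By the authors' methods a site was kept only if it was classified so in both control replicates. Sites were thus chosen through the control libraries, which favours control values above deficient values in advance. The p-values for the sites below do not allow for this choice. The share among miRNA genes expressed in ESCs was not taken. Of all 2202 annotated miRNA genes, expressed or not, 84 (3.81%) held a site of the Drosha table and 75 (3.41%) one of the Dicer table. Most annotated miRNA genes thus held none.

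The same was seen for miRNA genes in further imprinted genes. Sfmbt2 holds 119 annotated miRNA genes, Calcr 2, Blcap 1 and Usp29 1, and none of them was assigned a site. Whether short reads can be placed at a single position in these miRNA genes was not examined. Across all genes with a length, 2.69% were assigned a site in the Drosha table and 2.86% in the Dicer table. Among the 8611 genes with a mean log2 CPM of at least 4, which include 9 members (all but Igf2), the shares were 5.32% and 5.92%. A share of 1 in 10 members in the Drosha table and 0 in 10 in the Dicer table was too small a count to set apart from these backgrounds. None of the 52 further imprinted genes and 7 keepers was assigned a site.

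The Peg10 site lay at chr6:4760517 on the plus strand, the strand of the gene (chr6:4747306-4760517). It was the last base of the annotated gene, in the 3′ untranslated part of exon 2 of 2 of Peg10-202 and Peg10-203 and 13211 nt from the gene start. The sequence across it (GRCm38, plus strand, chr6:4760505-4760534) occurred 1 time in the genome from the site on, and the capital marks the first base of the piled-up reads.
Peg10, same strand: tggttaaggcaaAttgtgtcctgatcattt
Reads that start at this base run into sequence beyond the annotated 3′ end. Of the 522 sites of the Drosha table on the strand of a protein-coding exon, it was the only 1 within 10 nt of a gene end, and of 578 such sites of the Dicer table there was none. That position was singled out after its value was seen.

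Reads at this Peg10 site did not differ between groups beyond the spread between libraries. The control libraries had 1.01 and 2.29 RPM (29 and 67 reads), and the Drosha-deficient libraries had 1.94 and 1.88 RPM (60 and 54 reads). The control values bracketed both deficient values, so the groups overlapped. The means were 1.65 ± 0.906 RPM in control and 1.91 ± 0.0416 RPM in deficient cells (SD, n = 2 each). The log2 change was 0.30 with a standard error of 0.46 and a 95% interval of -0.68 to 1.28, and the adjusted p by limma over all sites was 0.595.

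The control libraries themselves differed by more than counting error. The exact Poisson 95% interval was 0.677 to 1.45 RPM for the library with 29 reads and 1.78 to 2.91 RPM for the library with 67 reads, and these do not meet. Without the first control library the change turned to -0.25, and without the second it was 0.85. Across all 3919 sites 37.6% were called decreased and 9.57% increased, where a call required an adjusted p under 0.05 and a log2 change past 1.5 in size. A decrease of that size lay outside the interval for this site.

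Sites that overlap a member on the opposite strand were then looked up by position, a step added after the values were seen. The authors' assignment named no gene for any of the 1353 Drosha-table sites that lie opposite a protein-coding exon, these included. Peg10 held 1 such site and Igf2r 2, and the other 8 members held none. All 3 lay in exons. Of the genes with a mean log2 CPM of at least 4, 11.2% had a site opposite an exon in the Drosha table and 7.34% in the Dicer table, beside 2 and 1 of the 9 members in that range.

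The sequences across these 3 sites are given in the direction of the reads, since the bases just before each site are those the linker would occupy in a read. Capitals mark the run of bases directly before the site that matches the 3′ end of the RNA linker used to capture the ends, and the reads start at the next base.
Peg10, opposite strand (chr6:4756061-4756090, minus strand): tcatgctGATCTggaggcagatggtggtgc
Igf2r exon 39, opposite strand (chr17:12692704-12692733, plus strand): gctcgtcccTCTaatacacattcatcatag
Igf2r last exon, opposite strand (chr17:12683631-12683660, plus strand): catcatcgagCTgaagtcttatttggttgg
The runs were 5, 3 and 2 bases long. At the Peg10 site on the strand of the gene the run was 0 bases.

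**Figure D3:**
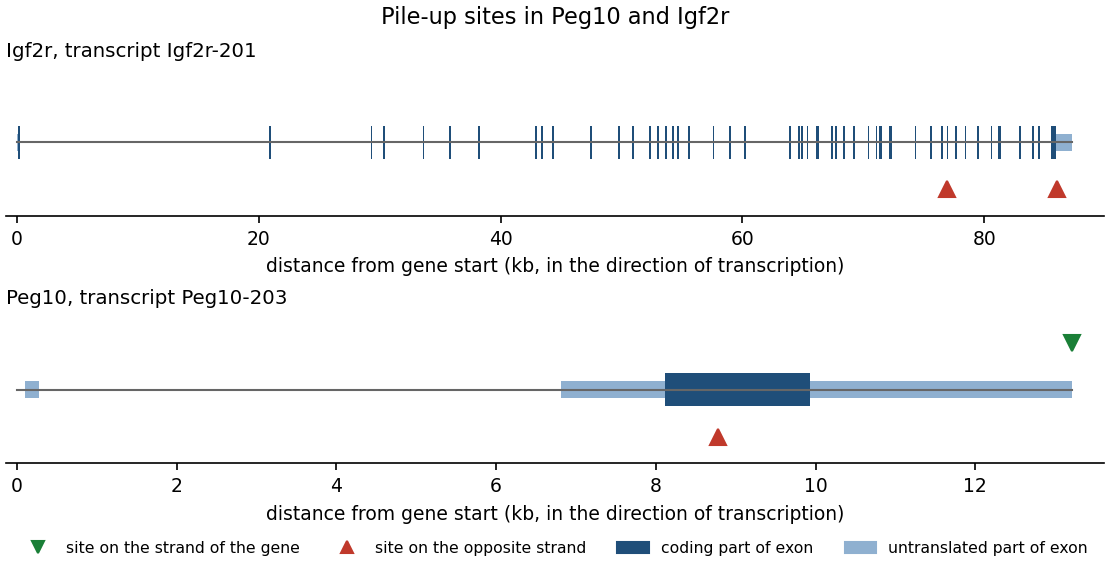
Position of the pile-up sites in Igf2r (top) and Peg10 (bottom), as distance from the gene start in kb (x axis), with coding exon parts in dark blue and untranslated parts in light blue. The same-strand site of Peg10 (triangle above) is at the gene end, 13211 nt from the start, and the opposite-strand sites (triangles below) lie in exons.

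The opposite-strand site in Peg10 was at chr6:4756078, in exon 2 of Peg10-203 and 8772 nt from the gene start, within coding sequence of that transcript. The control libraries had 1.08 and 1.23 RPM (31 and 36 reads) and the deficient libraries 0.161 and 0.278 RPM (5 and 8 reads). Both control values were above both deficient values. The reads fell by 1.996 on the log2 scale (standard error 0.56, 95% interval -3.17 to -0.82), with an adjusted p of 0.00533 by limma. The Dicer table did not list this site. Peg10 thus held a called decrease on the opposite strand, while the interval of its same-strand site did not reach a fall of that size.

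The larger of the Igf2r sites was at chr17:12692716, opposite coding sequence in exon 39 of 48 of Igf2r-201. The gene runs on the minus strand at chr17:12682406-12769664, and the site lay 76948 nt from its start. The control libraries had 14.1 and 10.4 RPM (403 and 305 reads) and the Drosha-deficient libraries 3.42 and 2.68 RPM (106 and 77 reads). All control values were above all deficient values, and the reads fell by 1.97 on the log2 scale (standard error 0.37, 95% interval -2.74 to -1.19, adjusted p by limma 0.000289).

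The smaller Igf2r site was at chr17:12683643, in the untranslated part of exon 48 of 48 and 86021 nt from the gene start. Control libraries had 3.00 and 2.81 RPM (86 and 82 reads) and Drosha-deficient libraries 0.903 and 1.18 RPM (28 and 34 reads). The groups did not overlap. The change was -1.40 on the log2 scale (standard error 0.43, 95% interval -2.30 to -0.50, adjusted p by limma 0.00894), which did not pass the size required for a call.

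Of the 3 opposite-strand sites, 2 were therefore called decreased, beside 37.6% of all sites of the Drosha table. In all 3 the control values were above the deficient values, as in 59.9% of all sites, while neither Igf2r site had this order in the Dicer table, where 27.4% of all sites had it. The members' sites were not particular in this. Of the 1353 sites opposite a protein-coding exon, 83.0% were called decreased, with a median change of -2.13, beside -0.93 over all sites. Of the 1282 such sites with a linker match of at least 2 bases, as at all 3 sites here, 85.6% were called decreased. The part of the linker match in these changes was not tested. All these sites were chosen through their control libraries, which favours decreases in advance, so the shares and p-values are not free of that choice.

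**Figure D4:**
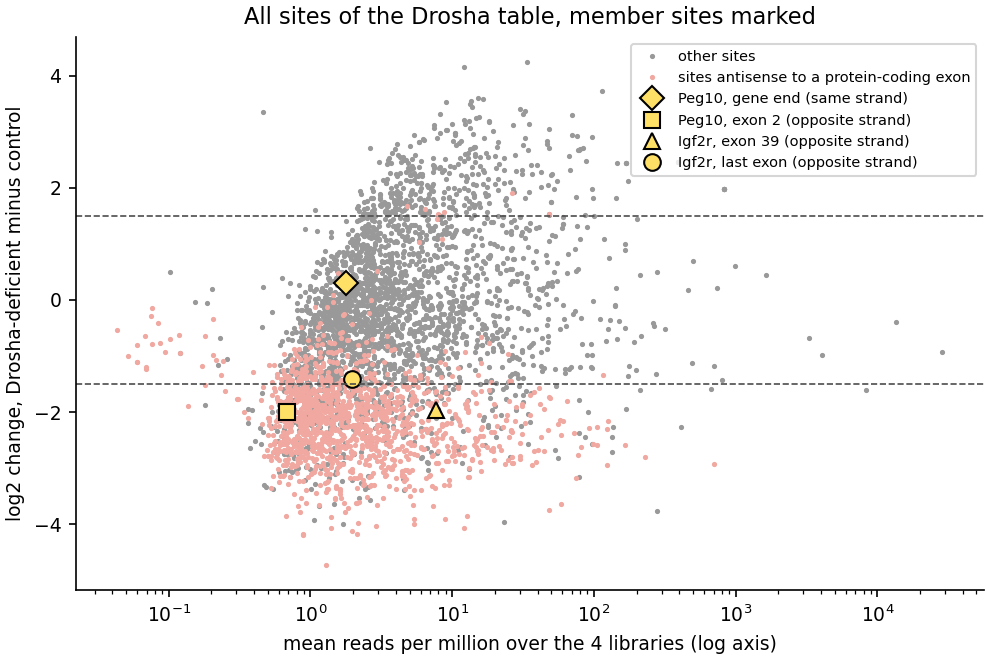
Log2 change in Drosha-deficient against control libraries (y axis) by mean RPM (x axis, log scale) for all 3919 sites of the Drosha table, with sites opposite a protein-coding exon in pink and dashed lines at 1.5 in size. The same-strand Peg10 site (diamond, 0.30) lies among the other sites, and the 3 opposite-strand sites (-1.996, -1.97 and -1.40) lie among the pink points.

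The Dicer line was examined for the same sites, to see whether a change followed the loss of either enzyme. Both Igf2r sites were among the 2595 sites that the tables share. At the exon 39 site the control libraries had 3.42 and 1.54 RPM (118 and 53 reads) and the Dicer-deficient libraries 5.88 and 2.47 RPM (174 and 81 reads). The groups overlapped, and the library numbered 1 was the higher in each. The log2 change was 0.71 (standard error 0.59, 95% interval -0.72 to 2.13, adjusted p by limma 0.664).

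At the last-exon site of Igf2r the control libraries had 1.82 and 0.495 RPM (63 and 17 reads) and the Dicer-deficient libraries 3.01 and 0.611 RPM (89 and 20 reads). The groups overlapped here too, and the replicates differed more within each group than the group means did. The log2 change was 0.47 (standard error 0.90, 95% interval -1.69 to 2.64, adjusted p by limma 0.853). Over the 4666 sites of the Dicer table limma called 0 decreased and 0 increased, beside 60 and 54 past the fold size at an unadjusted p under 0.05.

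**Figure D5:**
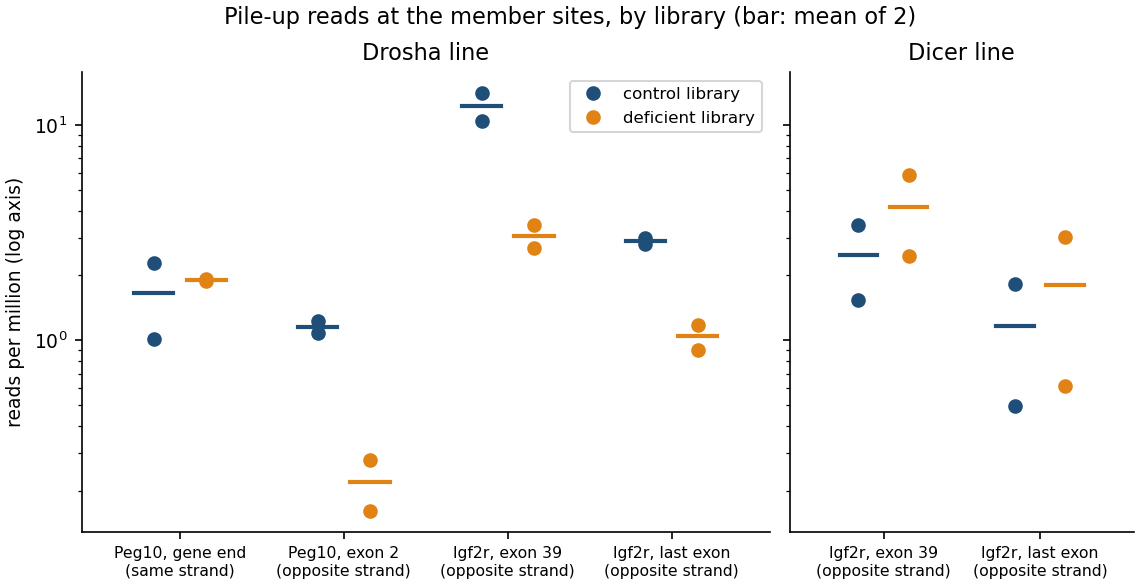
RPM of each library (y axis, log scale) at the same-strand Peg10 site and the 3 opposite-strand sites, for the Drosha line (left) and the Dicer line (right), a point per library and a bar at the mean of 2. Control points lie above deficient points at the 3 opposite-strand sites in the Drosha line, and overlap at the same-strand Peg10 site and in the Dicer line.

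Whether the change differed between the lines was tested directly. The lines also differed in how the gene was deleted (4OHT or virus and sort), which this test cannot separate from the enzyme lost. At the exon 39 site of Igf2r the Drosha change minus the Dicer change was -2.67 on the log2 scale (standard error 0.73, 95% interval -4.33 to -1.02), with an adjusted p of 0.0595 by limma, just short of the threshold. Leaving out 1 library at a time gave -3.28 to -2.06, with an adjusted p of 0.0107 to 0.19. It passed the threshold without Dicer control replicate 1 (-3.22, adjusted p 0.0107) or Dicer-deficient replicate 2 (-3.28, adjusted p 0.0358) and under no other omission. At the last-exon site the difference was -1.88 (standard error 1.10, 95% interval -4.37 to 0.62, adjusted p 0.231). Of the 2595 shared sites, 1.7% were lower and 3.08% higher in the Drosha comparison by this test.

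Sites inside the other imprinted genes and the keepers were found by the same look-up. In the Drosha table, 5 of the further imprinted genes held 6 sites, 4 of them opposite an exon. Ube3a, the E3 ubiquitin ligase of the Snrpn region, had 3.03 and 2.50 RPM in control and 0.258 and 0.730 RPM in Drosha-deficient libraries, a change of -2.39 with an adjusted p of 0.000758 by limma. Sfmbt2, a polycomb group gene, had 0.941 and 1.37 RPM in control and 0.323 and 0.174 RPM in deficient libraries, a change of -1.86 with an adjusted p of 0.00846. Both were called decreased, beside 83.0% of all Drosha-table sites opposite a protein-coding exon. Gatm, an enzyme of creatine synthesis, changed by -1.19 (adjusted p 0.0353) and Cobl, an actin nucleator, by -0.77 (adjusted p 0.178), short of a call.

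The other 2 sites lay in introns of Nap1l4 on the strand of the gene, at changes of 0.44 (adjusted p by limma 0.348) and -1.12 (adjusted p 0.0273), and neither was called. In the Dicer table Nap1l4 and Ube3a held 3 sites in all, none called. Ube3a changed there by -0.11 (standard error 0.86). Among the keepers, the Drosha table held 2 sites in Trim28 (-2.11 and -1.73), 1 in Zfp445 (-2.97) and 1 in Zfp57 (-2.70). All 4 lay opposite a coding exon and were called decreased, with adjusted p from 0.000229 to 0.00462 by limma. Each had a linker match of at least 3 bases. Of all Drosha-table sites opposite a protein-coding exon with such a match, 86.4% were called decreased. The sites of the keepers were not particular in this. In the Dicer table, 5 keepers held 8 sites, none called. The same-strand intron sites changed by -1.03 in Ctcf (standard error 0.49), 0.64 in Setdb1 (standard error 0.42) and -0.16 in Trim28 (standard error 0.44). The opposite-strand sites changed by 1.43, 0.73 and 1.30 in Trim28, -1.23 in Zfp445 and -0.16 in Zfp57. Their standard errors were 0.72 to 1.09. The intron sites had linker matches of 0 to 2 bases, and the opposite-strand sites of these genes in the Drosha table had matches of 3 to 6 bases.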

How the data were processed

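Degradome-seq reads were trimmed with Trimmomatic 0.38.0 and aligned to GRCm38 with STAR by the authors, who classified pile-up sites and deposited an RPM value for each site and library (8 libraries, 2 per group). The RNA-seq table deposited by the authors gives the mean log2 CPM over 6 libraries from edgeR 3.26.1. Its fold changes and p-values, and those of the site tables, are the authors' comparisons and were not used. The files held RPM and no counts, so the test planned for counts was replaced by the one planned for RPM: limma 3.58.1 (R 4.3.3) on log2(RPM + 0.1) with a mean-variance trend, per line over all sites, with Benjamini-Hochberg adjustment. The pseudocount understates changes of low sites. RPM times mapped reads gave whole reads for 100% of values within 0.05 reads, and these read numbers are quoted. The intervals and the 3-read level cover counting error only. The labels do not say that replicates were separate cultures, so p-values measure the spread between libraries, which may be technical. In simulated tables with a log2 change of 3, limma recovered 199 of 200 changed sites in the Drosha line, with 2 false calls of 3719. In the Dicer line limma recovered 187 of 200, with 4 false calls of 4466. Smaller changes, such as those at the sites described here, were not simulated. In the Dicer table itself the lowest adjusted p by limma was 0.465, with 0 sites called. The simulation thus does not show how well a change at these sites could be detected in that line. The members and lists were chosen with earlier results of these data known. All members were named, with the genes of the further imprinted and keeper lists that hold a site and the 3 highest and 3 lowest of each by level. The rule for the most similar sites named none, since no member's own site was in both tables. Alternatives were other pseudocounts, scalings, filters, thresholds and lengths, a replicate block and leaving out each library. Gene lengths were matched by identifier for 99.9% of genes.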

Additional observations from a re-analysis of the deposited data

How the results depend on the processing

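The results for sites in or near a member kept their direction under the alternatives tried, except as follows. The same-strand Peg10 site changed by -0.25 to 0.85 when each library was left out. The last-exon Igf2r site in the Dicer line ranged from -0.59 to 1.54 when each library was left out, and turned to -0.37 without control replicate 2 and to -0.59 without deficient replicate 1. The difference between lines at the second site past the end of Snrpn turned to 0.14 with values centred on the median site and to 0.17 without Dicer-deficient replicate 1, in a range of -0.91 to 0.17 when each library was left out. The difference between lines at the exon 39 Igf2r site passed the threshold with uniquely mapped reads (-2.82, adjusted p 0.0471) and when centred (-2.16, adjusted p 0.0374). Centring, which moved the median Drosha change from -0.93 to -0.34, put the opposite-strand sites of Peg10 (-1.40) and Igf2r exon 39 (-1.37) short of a call, as a pseudocount of 1 RPM did for Peg10 (-0.82). Scaling to uniquely mapped reads moved that median to -1.20 and brought the last-exon Igf2r site to a call (-1.68). At that site in the Drosha line centring gave -0.81, with an adjusted p of 0.0846 by limma. Leaving out each library gave -1.58 to -1.23 there. Decreased sites in the Drosha line numbered 1473, but 548 with a pseudocount of 1 RPM and 871 when centred, and 907 to 1519 when each library was left out. Increased sites numbered 375, but 602 when centred and 264 to 463 when each library was left out. Decreased sites were 79.7% of calls, and 59.1% when centred. The replicate block gave 67 decreased and 119 increased sites in the Dicer line in place of 0 and 0, and leaving out each library gave 0 to 1 and 0 to 13. Sites lower in the Drosha comparison by the test between lines numbered 44, but 119 with uniquely mapped reads, 123 when centred, 2 with no mean-variance trend and 934 with the replicate block, and 0 to 726 when each library was left out. Sites higher numbered 80, but 287 when centred, 1 with no trend and 386 with the block, and 0 to 243 when each library was left out. The cause was not tested. Same-numbered libraries are not said to be paired, and with 2 pairs per line their deviations correlated at 0.13 (Drosha) and 0.53 (Dicer). With the block the difference between lines passed the threshold at both Igf2r sites, with an adjusted p of 5.8e-07 at exon 39 and 0.00558 at the last exon, and the same-strand Peg10 site had one of 0.506. The sites past the end of Snrpn were then called decreased in the Dicer line as well, with an adjusted p of 0.00357 and 0.000938. With the longest transcript 8 members were above the median gene, as in the report, and with no length correction 9.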

Other observations

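Close to Snrpn, 2 adjacent sites lay 1551 and 1550 nt past the annotated gene end, on its strand, at chr7:59980944 and chr7:59980945. They are the second and first bases of Snord107, a small nucleolar RNA gene in the long transcript that runs on from Snrpn, and are assigned to Snord107 and Gm38393. The sequence around the first base (minus strand, chr7:59980928-59980957, first base in capitals) was agaccttgactgGatttatgatgatatagg. At chr7:59980944 the Drosha control libraries had 6.66 and 9.48 RPM and the deficient libraries 1.29 and 1.60 RPM, a change of -2.39 with a standard error of 0.39 and an adjusted p of 0.000106 by limma. The Dicer control libraries had 4.89 and 3.21 RPM and the deficient libraries 0.878 and 1.31 RPM, a change of -1.79 with a standard error of 0.46. In both lines all control values were above all deficient values. The same order held at 59.9% of all sites in the Drosha table and 27.4% in the Dicer table. Sites were chosen through their control libraries, which favours this order in advance. The share among sites in small nucleolar RNA genes was not taken. The adjusted p in the Dicer line was 0.465, the lowest that any site of that table reached. The difference between the lines was -0.60 with an adjusted p of 0.473. At chr7:59980945 the changes were -2.41 (adjusted p by limma 0.000141) in the Drosha line and -2.04 (adjusted p 0.465) in the Dicer line, and being adjacent the 2 sites are not independent. Snrpn itself was assigned no site.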
